A study of Mus musculus with 96 samples.

Results

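The clustered protocadherin genes were followed through 7 RNA-seq count tables and 14 ChIP-seq peak lists of mouse embryonic stem cells (ESCs). Members were every counted feature whose symbol named a gene of the α (Pcdha), β (Pcdhb) or γ (Pcdhg) cluster, which gave 25 of 37620 features: 2 Pcdha, 22 Pcdhb and 1 Pcdhg. The study asked how RYBP, a subunit of Polycomb repressive complex PRC1, works at super-enhancers of ESCs.

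Each count table held 2 control and 2 perturbed libraries. In the Rybp knockout table, Rybp-floxed ESCs of line R7.15 left in plain medium (Rybp+/+) were compared with the same line after 5 µM 4-hydroxytamoxifen (4-OHT) for 4 days (Rybp-/-), so the drug was given to the knockout group and not to its control. In line R1, the empty short hairpin vector shEV was compared with shRybp and, in a second table, with shWdr5. In the rTRS table, cells carrying a doxycycline-induced (DOX-induced) Rybp_Stat3 integration were compared without (NTC) and with DOX. In the RYBP induction table, J1 cells labelled Tet on.RYBP received vehicle or DOX. In the TF-AA table, wild-type R1 cells (WT ESC) were compared with R1 cells labelled TF-AA mutation, a term the labels do not spell out. In the phase disruption table, R7.15 cells with both Rybp alleles floxed and Rosa26::CreERT2 expressed either intact RYBP (WT.RYBP) or RYBP with a short deletion (RYBP phase disruption), and both groups received 4-OHT. Peak lists covered H3K4me3, H3K27ac and WDR5 in Rybp+/+ and Rybp-/- cells, STAT3 in the same pair, RING1B in R1 cells with shEV or shStat3, and RING1B and STAT3 in R1 cells labelled Tet.Rybp.Stat3 without or with DOX. Nothing in the labels says that replicates came from separate cultures, so the p-values below measure only the spread between these libraries, which may be technical.

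Clustered protocadherins are cadherin-like adhesion proteins best known from neurons, where each cell displays its own combination of isoforms and like combinations recognise each other. In the α and γ clusters, many variable first exons, each with its own promoter, are spliced to constant exons shared by the whole cluster, whereas each β gene is a single exon with its own promoter. Promoter choice in neurons depends on CTCF, cohesin and DNA methylation, and the clusters are known to be weakly expressed in ESCs.

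All 3 clusters lie in tandem on the plus strand of chromosome 18 (mm9). The α cluster spans chr18:37089939-37347311 (257.4 kb), the β cluster chr18:37424652-37681073 (256.4 kb) and the γ cluster chr18:37833989-38001527 (167.5 kb). In the annotation used for counting, nearly all annotated α isoforms form 1 feature that carries the symbol Pcdha11 (ENSMUSG00000007440, 10 annotated transcript starts, 24688 exon bases), with Pcdha3 (ENSMUSG00000091969, 2439 exon bases) nested inside it. All annotated γ isoforms form 1 feature under the symbol Pcdhgc5 (ENSMUSG00000023036, 10 starts, 28980 exon bases). The values of Pcdha11 and Pcdhgc5 below are therefore those of the α and γ units, constant exons included, and no single α or γ isoform could be told apart. Only starts and exons in this annotation were examined, so any α or γ promoter or exon that it lacks is not covered below. The 22 β features are separate genes, and Pcdhb20 among them is annotated as a pseudogene. Reads that fell on more than 1 feature went uncounted, and in the 6 tables that list them they came to between 3.06% and 3.68% of counted plus ambiguous reads. Reads that mapped to several places were also left out. Between 0% (Pcdhb1 and Pcdhgc5) and 12.9% (Pcdha3) of a member's 50-base stretches were found again in another member, so the counts of close β copies are uncertain. The strand setting of the counting was not given in the sources used here, so 2 antisense genes share bases that cannot be assigned: Gm16882 in the γ unit (1647 shared bases, between 17 and 276 counts per library) and Gm10545 in the α unit (2790 shared bases, at most 2 counts).

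Library totals ran from 14512857 to 81049618 counts on genes, and each table was fitted alone. Replicates differed by more than sampling noise in every group (chi-square per degree of freedom between 2.07 and 12.4). The targeted genes moved with the labels in 4 tables: Rybp fell by 2.15 (log2 scale) in Rybp-/- cells and by 1.25 with shRybp, Wdr5 fell by 2.55 with shWdr5, and Rybp rose by 1.91 in the RYBP induction table (all with edgeR adjusted p under 0.05). In the rTRS table Rybp was at 5795 and 5936 counts without and 5285 and 5081 with DOX (log2 fold change -0.15, edgeR adjusted p = 0.0762), and Stat3 rose by only 0.20 (edgeR adjusted p = 0.0259), so its perturbed group is called "the libraries labelled rTRS DOX" throughout. The column name of DOX replicate 2 shows DOX but not rTRS, and that library was placed in the group by elimination. The 2 shEV libraries are the same in the Rybp and Wdr5 knockdown tables, where the second holds 0.509 and 0.506 of the counts of the first, so the 2 comparisons share their controls. All 10 ESC markers examined, among them Pou5f1 and Nanog, passed the count filter in every table.

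The γ unit made up most of the clusters' RNA in every table. In CPM (counts rescaled to a common library size with edgeR's TMM factors) it held between 88.1% and 97.4% of all member counts, the 22 β features together between 2.03% and 10.4%, and the α features between 0.461% and 2.46%. Per kilobase of exon, the γ unit had a median over the tables of 3.02 CPM per kb (range of table means 1.81 to 4.49), against 0.216 for Pcdhb17, the highest β gene by this measure, 0.0907 for Pcdhb14 and 0.0373 for the α unit. Pcdhb10 had no count at all in 6 tables and Pcdhb9 none in 4. Of the 25 members, 3 (Pcdha11, Pcdhb17 and Pcdhgc5) passed edgeR's filter on low counts in all 7 tables, 4 passed in some, and 18, 17 of them β genes, passed in none. No single library held more than 23 counts of any of those 18. The filter asks for about 10 counts in 2 libraries, and in 5 cases both of these belonged to the group where the member was higher (Pcdhb17 with shEV, Pcdhb22 with rTRS DOX, Pcdhb14 and Pcdhb17 with vehicle, and Pcdhb14 with phase disruption). Such a member had to differ in order to be tested, so no median over members is given in those 4 tables. Levels from different tables were normalised separately, and are given side by side without comparison.

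**Figure D1:**
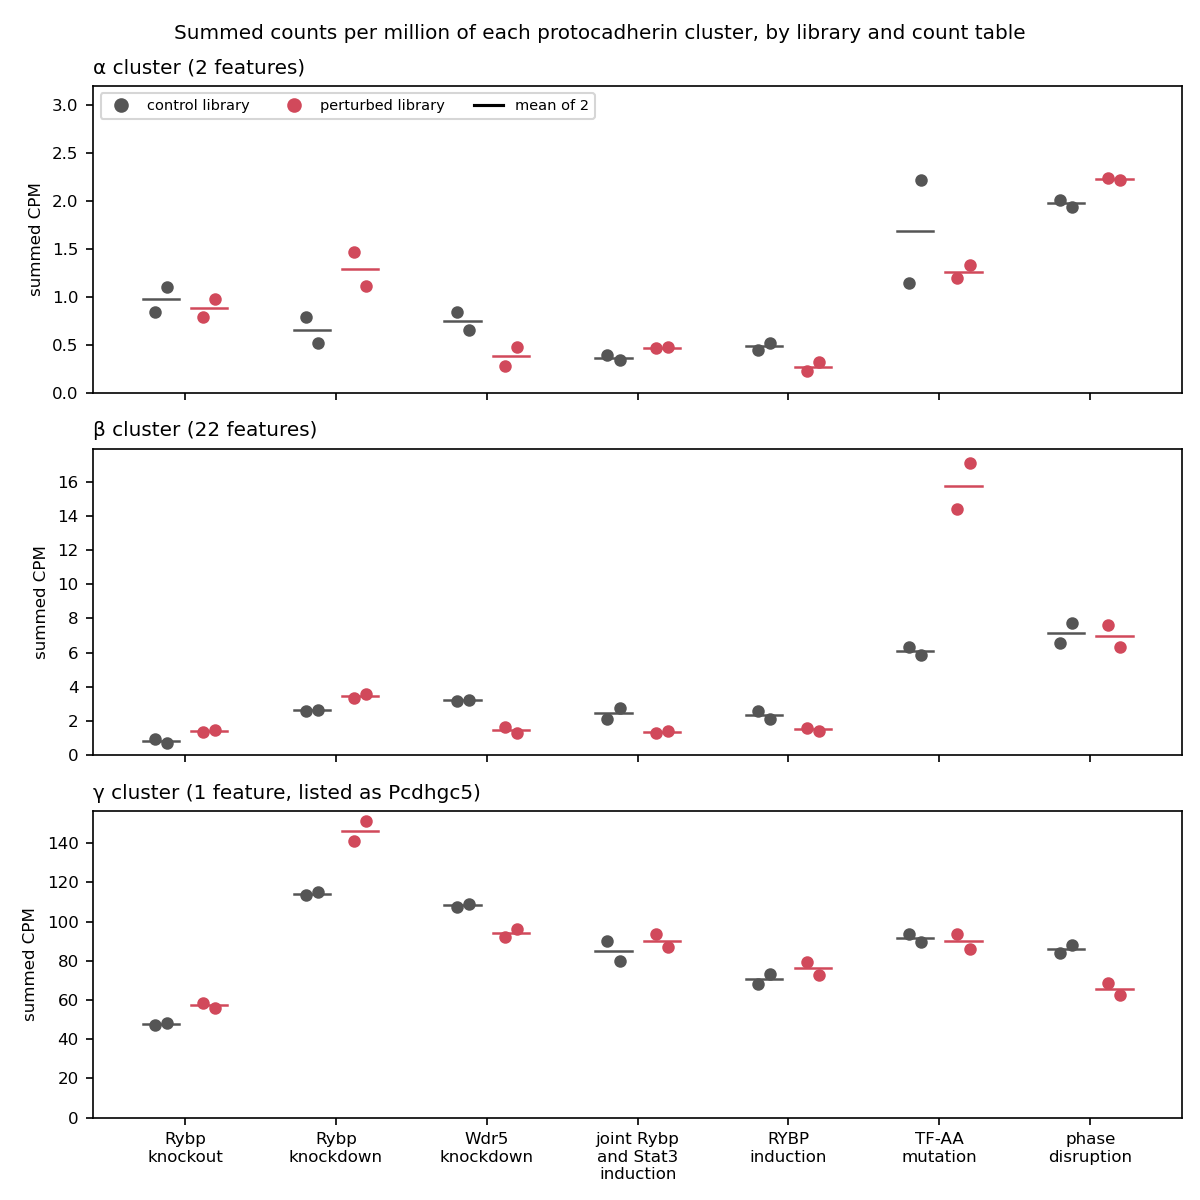
Summed CPM (y axis, linear from 0) of the α, β and γ clusters in each library of the 7 count tables (x axis), with control libraries in grey, perturbed libraries in red and bars at the mean of 2. The γ panel runs between 47.1 and 151 CPM while α reaches at most 2.24 CPM, and the widest gap in the β panel is in the TF-AA table, at 6.30 and 5.88 against 14.4 and 17.1 CPM.

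Following RYBP deficiency, the γ unit rose slightly, and no α or β feature passed the test. The comparison asks what loss of RYBP does to these genes in R7.15 cells. Pcdhgc5 had 3703 and 3874 counts in Rybp+/+ and 4468 and 4309 counts in Rybp-/- libraries, or 47.1 and 48.1 against 58.7 and 56.0 CPM. Both knockout libraries lay above both controls. The log2 fold change was 0.27 (SE 0.048, edgeR adjusted p = 2.44e-05, from the quasi-likelihood test and adjusted by Benjamini and Hochberg's method across the whole table). It was the single member called (edgeR adjusted p under 0.05) of 3 that passed the filter, where 45.5% of all 16955 genes tested were called and 22.8% were called upward. The median log2 fold change was 0.27 over the 3 members and 0.00 over all genes tested.

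Pcdhb17 had 28 and 12 counts in the controls and 57 and 31 in the knockout libraries. The groups did not overlap, but the log2 fold change of 1.19 (SE 0.54) had an edgeR adjusted p of 0.0739. With 1 library left out the fold change ran from 0.67 (without Rybp-/- replicate 1) to 1.93 (without Rybp+/+ replicate 1). The α unit, at 66 and 88 against 60 and 74 counts, overlapped between groups (log2 fold change -0.14, 95% interval -0.77 to 0.49). Summed over the cluster, β counts were 73 and 57 against 103 and 112, a ratio of 1.72 in CPM, or 1.46 without Pcdhb17. By mean CPM, 12 β features were higher and 6 lower in Rybp-/- cells, and 4 had no count, where 52.5% of all features with a count were higher. Leaving out any of 3 libraries (Rybp+/+ replicate 1, Rybp-/- replicate 1 or Rybp-/- replicate 2) gave 2 called members in place of 1, the added one being Pcdhb17, Pcdhb14 and Pcdhb17 in that order. With 1 library in a group the filter asks for a single library, so Pcdhb14, which was not tested otherwise, entered through the knockout library alone. All 6 markers of fibroblasts, a cell type often used as a feeder layer, rose in the knockout libraries, and their summed level was 57.2 and 56.4 CPM against 114 and 120 CPM (Col1a1 had 1634 and 1667 against 2981 and 3035 counts). All 4 trophectoderm markers rose as well, from 6.92 and 6.50 to 12.1 and 12.0 CPM. Their part in the rise of the γ unit was not tested, and in bulk RNA more cells of a type and more RNA per cell cannot be told apart.

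The γ unit rose with knockdown of Rybp in R1 cells as well, and no other member passed the test. Pcdhgc5 was at 4483 and 4240 counts with shEV and 7781 and 6782 with shRybp (113 and 115 against 141 and 151 CPM). Both knockdown libraries were above both controls, and the log2 fold change was 0.35 (SE 0.052, edgeR adjusted p = 1.45e-05). It was again the single member called, of 5 tested, against 52.7% of all 16538 genes tested (26.8% upward), and the median log2 fold change was 0.35 over the 5 and 0.02 over all genes.

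The α unit had 31 and 18 counts with shEV and 75 and 49 with shRybp (log2 fold change 0.94, SE 0.42, edgeR adjusted p = 0.0678). Pcdhb7 had 12 and 22 counts against 46 and 49 (log2 fold change 1.09, SE 0.50, edgeR adjusted p = 0.0773). In both, the knockdown libraries lay above the controls without passing the threshold. Pcdhb14 went the other way, with 22 and 12 counts against 11 and 13 (0.556 and 0.326 against 0.199 and 0.290 CPM), below both controls but with an edgeR adjusted p of 0.279 (log2 fold change -0.86, 95% interval -2.12 to 0.40). Pcdhb17, at 47 and 35 against 53 and 37 counts, overlapped (log2 fold change -0.26, 95% interval -1.03 to 0.51). β counts summed to 103 and 97 against 183 and 161, a CPM ratio of 1.32, and to a ratio of 1.65 without Pcdhb17. Each of the 22 β features had at least 1 count in this table, 13 of them higher and 9 lower with shRybp by mean CPM, where 54.1% of all features with a count were higher. The count of called members was 2 without shEV replicate 1 (with Pcdha11), 3 without shEV replicate 2 (with Pcdhb2 and Pcdhb7) and 2 without shRybp replicate 2 (with Pcdhb2). Pcdhb2 had 0 and 1 counts against 23 and 2, so nearly all its reads came from a single library, through which it entered the test. Trophectoderm markers summed to 3.26 and 3.07 CPM with shEV and 18.1 and 18.1 CPM with shRybp (3 of 4 rose), and the 3 fibroblast markers tested rose (18.6 and 18.8 against 31.9 and 30.7 CPM), with Dcn at 0 in every library and Col3a1 and Postn at no more than 4 counts. Of 5 primitive endoderm markers tested 4 rose and 1 fell (12.8 and 15.5 against 21.7 and 21.0 CPM in sum). Neural markers summed to 315 and 328 against 242 and 244 CPM (3 of 6 tested rose and 2 fell), and ESC markers to 8986 and 9280 against 7934 and 7890 CPM (5 of 10 rose and 4 fell). Their part was not tested.

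With shWdr5, against the same shEV libraries, the γ unit fell, and Pcdhb17 was called downward after passing the filter through its controls alone. WDR5 is a core subunit of the complexes that methylate H3K4. Pcdhb17 had 27 and 18 counts with shEV and 8 and 1 with shWdr5. The knockdown libraries lay below the controls, and the log2 fold change was -2.33 (SE 0.58, edgeR adjusted p = 0.00127). As it passed the filter through the shEV libraries alone, this value is a description. With no filter it was -2.33 with an edgeR adjusted p of 7.02e-04, and over the libraries left out it ran from -4.34 (without shWdr5 replicate 1) to -1.53 (without shWdr5 replicate 2, edgeR adjusted p = 0.0476). Pcdhgc5 had 2301 and 2153 counts against 1969 and 2004 (108 and 109 against 92.0 and 96.2 CPM), a log2 fold change of -0.20 (SE 0.053, edgeR adjusted p = 0.00205). With Pcdhb17 set aside, 1 of the other 2 members tested was called, where 63.0% of all 15143 genes tested were called and 31.5% downward. The α unit was at 18 and 12 against 6 and 10 counts, below the controls in both libraries, with an edgeR adjusted p of 0.115 (log2 fold change -0.93, 95% interval -1.93 to 0.06).

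β counts summed to 68 and 64 with shEV and 35 and 27 with shWdr5, a CPM ratio of 0.457, or 0.591 without Pcdhb17. Over the 22 β features, 16 were lower and 4 higher by mean CPM and 2 had no count, where 49.4% of all features with a count were lower. In reads, 4 of those 16 had the same number in both groups and 12 had fewer. Pcdhb14, under the filter, had 15 and 8 against 2 and 1 counts. Without shWdr5 replicate 1 the edgeR adjusted p of Pcdhgc5 was 0.0523, while Pcdhb14 was called downward, as it was without shEV replicate 2. In both fits Pcdhb14 entered the test through shEV libraries, where it is high. Neural markers summed to 297 and 310 CPM with shEV and 222 and 227 CPM with shWdr5 (4 of 6 tested rose and 2 fell, Tubb3 from 5772 and 5565 to 3313 and 3461 counts). ESC markers summed to 8452 and 8734 against 7069 and 7147 CPM (7 of 10 fell, 2 rose). Trophectoderm markers went from 3.18 and 2.99 to 18.5 and 20.2 CPM (2 of 3 tested rose), and primitive endoderm markers from 12.5 and 15.0 to 30.6 and 29.7 CPM (3 of 5 tested rose, 1 fell). The part of these in the members' values was not tested. The same table held more Rybp RNA with shWdr5 (1709 and 1606 against 2581 and 2432 counts).

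**Figure D2:**
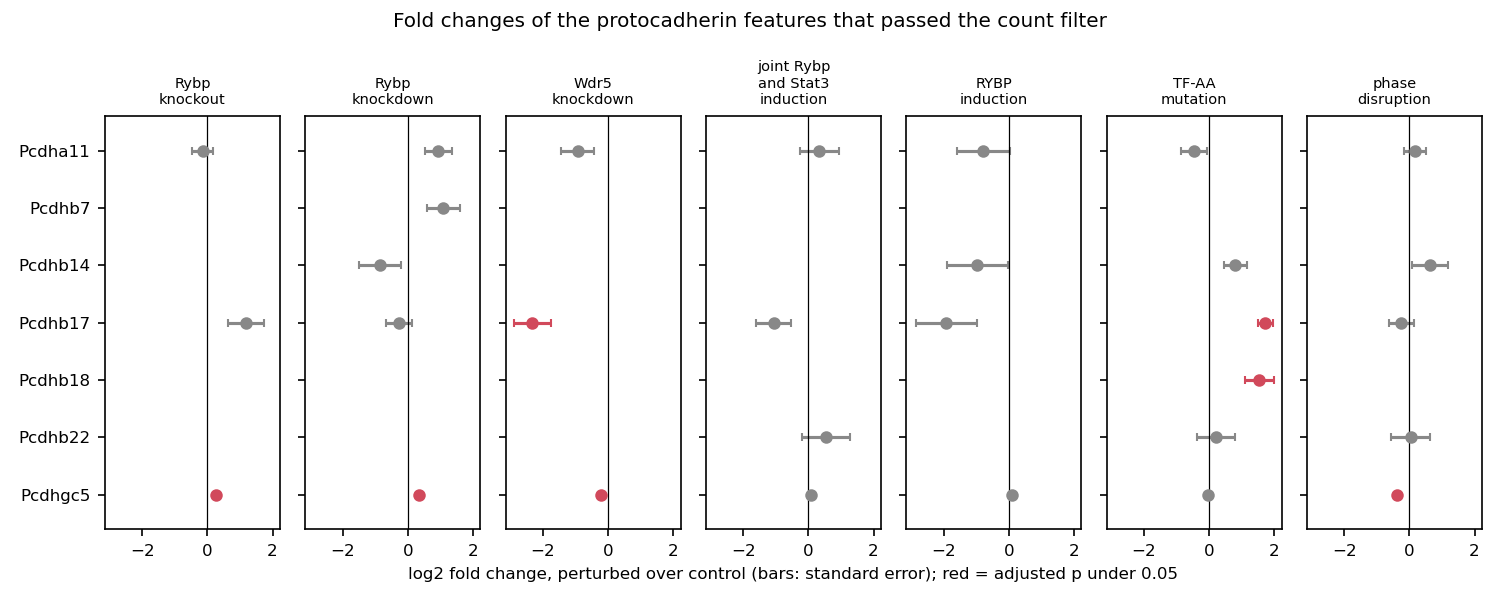
Log2 fold changes (x axis, perturbed over control, with standard errors) of the members that passed the count filter (rows) in each of the 7 tables (panels), with red points at an edgeR adjusted p under 0.05. The γ unit, Pcdhgc5, is red in 4 panels at between -0.39 and 0.35, whereas Pcdhb17 ranges from -2.33 (Wdr5 knockdown) to 1.73 (TF-AA mutation) and is red in those 2, where leaving out 1 library moved it between -4.34 and -1.53 and between 1.66 and 1.80.

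In the libraries labelled rTRS DOX no member was called. The 4 members tested had no unadjusted edgeR p under 0.05, and DESeq2 called 0 as well, where edgeR called 43.4% of all 16291 genes tested (20.4% downward). Pcdhgc5 had 4613 and 4287 counts without and 4853 and 4430 with DOX, which overlap in CPM (log2 fold change 0.09, 95% interval -0.07 to 0.24). Pcdhb17 had 36 and 65 counts against 17 and 30, lower in both DOX libraries (log2 fold change -1.06, SE 0.53, edgeR adjusted p = 0.128). The α unit had 20 and 18 against 24 and 23 counts, higher in both DOX libraries (log2 fold change 0.33, SE 0.60, edgeR adjusted p = 0.694). Pcdhb22 was higher in both as well, at 9 and 10 against 15 and 12 counts (log2 fold change 0.53, 95% interval -0.91 to 1.97), and passed the filter through the DOX libraries alone. β counts summed to 108 and 149 against 68 and 73 (CPM ratio 0.561, or 0.614 without Pcdhb17), with 12 features lower and 5 higher by mean CPM, where 50.4% of all features with a count were lower. Pcdhb3, with 22 and 10 against 4 and 0 counts, was the 1 member called, downward, when rTRS DOX replicate 1 was left out, and entered that fit through the libraries without DOX. In the same libraries 8 of 10 ESC markers fell (6814 and 6488 against 4166 and 3911 CPM in sum), and 3 of 3 trophectoderm markers tested rose (9.65 and 10.2 against 58.9 and 58.3 CPM). Neural markers summed to 158 and 144 against 85.9 and 78.8 CPM (3 of 4 tested fell and 1 rose). Mesoderm markers went from 14.4 and 12.2 to 63.6 and 58.0 CPM (3 of 5 tested rose and none fell). Their part in the members' values was not tested.

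Induction of RYBP in J1 cells also left every member uncalled. Of the 4 members tested, edgeR called 0 and DESeq2 called 0, and 1 (Pcdhb17) had an unadjusted edgeR p under 0.05, while 6.02% of all 14937 genes tested were called (3.63% upward, 2.39% downward). Pcdhb17 had 26 and 12 counts with vehicle and 8 and 1 with DOX (log2 fold change -1.92, SE 0.94, unadjusted p = 0.0498, edgeR adjusted p = 0.265). The DOX libraries were lower in Pcdhb17, Pcdhb14 (11 and 12 against 4 and 7 counts) and the α unit (16 and 17 against 7 and 11 counts). Pcdhb17 and Pcdhb14 passed the filter through the vehicle libraries alone, where they are high. Pcdhgc5 had 2463 and 2535 against 2485 and 2533 counts (log2 fold change 0.10, 95% interval -0.04 to 0.25). β counts summed to 93 and 72 against 50 and 50, a CPM ratio of 0.651, or 0.765 without Pcdhb17, and 11 features were lower and 7 higher by mean CPM, where 49.4% of all features with a count were lower. Rybp itself went from 4876 and 5015 to 16300 and 18639 counts in this table, and few markers were called (1 of 10 ESC markers rose, 1 of 5 neural markers tested fell, and no trophectoderm, mesoderm, primitive endoderm or fibroblast marker passed the test).

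In TF-AA cells, 2 β genes rose. Pcdhb17 had 40 and 42 counts in WT ESC and 127 and 130 in TF-AA libraries (1.91 and 2.08 against 6.31 and 6.94 CPM). The mutant libraries lay far above the controls, with a log2 fold change of 1.73 (SE 0.23, edgeR adjusted p = 3.07e-06). Pcdhb18 had 10 and 12 against 32 and 29 counts, a log2 fold change of 1.54 (SE 0.44, edgeR adjusted p = 0.00969). These were 2 of 6 members tested, against 30.5% of all 14456 genes tested (14.4% upward), and the median log2 fold change was 0.52 over the 6 and 0.01 over all genes. The call of Pcdhb18 rested on few reads. It passed the filter through both TF-AA libraries and 1 of the 2 WT ESC libraries, and with no filter its edgeR adjusted p was 0.00463. By other choices it was not called: its adjusted p was 0.0612 with DESeq2, which called 1 member in place of 2. It also missed the threshold without WT ESC replicate 1, without TF-AA replicate 1 and without TF-AA replicate 2. In the first of these fits Pcdhb7 was called in its place and in the second Pcdhb6. Each had entered through a TF-AA library, where it is high.

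The β cluster as a whole had more reads in TF-AA cells. Its summed level was 6.30 and 5.88 CPM against 14.4 and 17.1 CPM, a ratio of 2.59, and 2.23 with Pcdhb17 left out. By mean CPM, 19 of the 20 β features with any count were higher in TF-AA cells and 1 was lower, where 55.6% of all features with a count were higher. Pcdhb14 (24 and 25 against 35 and 46 counts) was higher in both mutant libraries with an edgeR adjusted p of 0.0879. Among features under the filter, Pcdhb6 had 1 and 1 against 7 and 14 counts, Pcdhb7 3 and 0 against 11 and 9, and Pcdhb4 1 and 2 against 7 and 7. In the neighbouring clusters the groups overlapped: Pcdhgc5 was at 1962 and 1818 against 1883 and 1615 counts (93.7 and 89.8 against 93.6 and 86.2 CPM, log2 fold change -0.03, 95% interval -0.19 to 0.13), and the α unit at 23 and 43 against 22 and 23. No difference between the clusters was itself tested. Dnmt3l, a cofactor of de novo DNA methylation, fell by 1.34 on the log2 scale in the same libraries. It fell in the Wdr5 knockdown and phase disruption tables as well, and its part in the β counts was not tested. Fibroblast markers summed to 11.7 and 11.0 CPM in WT ESC and 24.0 and 24.7 CPM in TF-AA cells (3 of 3 tested rose, with Col3a1 and Dcn at 0 in every library), and trophectoderm markers to 0.334 and 0.346 against 3.08 and 3.90 CPM. The 1 of 4 trophectoderm markers tested, Krt7, was at 0 and 1 against 49 and 52 counts, and Cdx2, Elf5 and Hand1 had at most 11 counts in a library. Their part in the β counts was not tested.

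With the RYBP deletion labelled phase disruption, the γ unit fell. Pcdhgc5 had 1332 and 1411 counts with WT.RYBP and 1009 and 930 with the deletion (83.8 and 88.0 against 68.5 and 62.5 CPM). Both deletion libraries lay below both controls, and the log2 fold change was -0.39 (SE 0.066, edgeR adjusted p = 1.73e-05). Pcdhb14 (8 and 8 against 12 and 11 counts) passed the filter through the deletion libraries alone and is set aside. Of the other 4 members tested Pcdhgc5 was the single one called, where 33.0% of all 14575 genes tested were called and 17.0% downward. The β cluster summed to 104 and 124 against 112 and 94 counts (CPM ratio 0.975), with 14 features higher and 6 lower by mean CPM (53.4% of all features with a count were higher), and with Pcdhb17 at 22 and 42 against 29 and 21 (log2 fold change -0.24, 95% interval -0.98 to 0.49). The α unit was at 31 and 31 against 32 and 33 counts. Fibroblast markers were abundant in this table, and their sum was lower with the deletion, at 430 and 423 against 343 and 366 CPM. Of 6 tested 3 fell, none rose and the rest were not called (Col1a2 went from 2936 and 2905 to 1867 and 2005 counts). The 3 trophectoderm markers tested rose, from 9.00 and 9.11 to 35.9 and 37.5 CPM in sum. The part of either list was not tested. Rybp RNA was lower with the deletion too (log2 fold change -0.22), and the counts do not separate the introduced copies from what the floxed locus still made.

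Across the 7 tables, then, 3 members were called somewhere: the γ unit in 4, Pcdhb17 in 2 and Pcdhb18 in 1. Of all genes tested, between 6.02% (RYBP induction) and 63.0% (Wdr5 knockdown) were called in a table. Pcdhb18 was not called with DESeq2. Neither Pcdhb18 nor, in the Wdr5 knockdown, the γ unit kept its call with each library left out in turn. In 1 of the 2 tables with a call of Pcdhb17, the Wdr5 knockdown, it was tested only because it was high in the controls. The γ unit was never far from its control, between -0.39 and 0.35 on the log2 scale, and its estimates carried standard errors of at most 0.082. Pcdhb17, 3269 bases long at chr18:37644675-37647943, moved over a far wider range on counts between 1 and 130.

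Protocadherins outside the clusters, each a gene of its own, were followed as a list of 12, of which 11 were matched to features (all but Pcdh15). Of these, Pcdh1 and Pcdh12 also lie on chromosome 18, 344 and 425 kb beyond the γ cluster, and the other 9 on other chromosomes. In Rybp-/- cells 2 of 9 tested rose (Pcdh7 by 1.57 and Pcdh17 by 1.55 on the log2 scale) and none fell, where 22.8% of all genes tested rose. With shRybp 3 of 5 rose (Pcdh8 by 1.83, Pcdh19 by 1.17, Pcdh1 by 0.66), against 26.8% of all genes. With shWdr5, against the same controls, 2 of 4 rose (Pcdh19 by 1.44, Pcdh8 by 0.93), against 31.5% of all genes, whereas the γ unit fell in that table. In the libraries labelled rTRS DOX Pcdh1 and Pcdh8 rose, of the 3 tested that had not passed the filter through the DOX libraries alone, where 23.0% of all genes rose. Pcdh1 went from 528 and 525 to 3555 and 3438 counts and Pcdh8 from 10 and 5 to 15 and 62. Pcdh7 and Pcdh18 were tested only because they were high with DOX, so their values are a description: Pcdh7 went from 0 and 0 to 70 and 71 counts, at least 23.9-fold higher against a floor of 3 counts per library, and Pcdh18 from 5 and 6 to 85 and 102. With RYBP induction Pcdh9, which passed through the vehicle libraries alone, went from 17 and 12 to 0 and 0 counts (at least 4.49-fold lower against the same floor), and the other 3 tested had edgeR adjusted p-values from 0.0788 (Pcdh17, 49 and 64 against 16 and 20 counts) upward. In TF-AA cells the lowest edgeR adjusted p of the 4 tested was 0.192 (Pcdh8), and Pcdh8 passed the filter through the TF-AA libraries alone. With the phase disruption 1 of 8 rose (Pcdh1 by 0.64) and 1 fell (Pcdh7 by 0.34), against 16.1% and 17.0% of all genes. The list's medians, in the tables where none of it passed the filter through 1 group alone, were 0.25 (Rybp-/-), 0.66 (shRybp), 0.48 (shWdr5) and -0.17 (phase disruption).

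A list of 19 architectural and silencing factors known at the clusters (cohesin subunits, CTCF, REST, DNA methyltransferases and the TRIM28 and SMCHD1 axes) had 17 matched members, all 17 tested in every table. In Rybp-/- cells 12 fell and 3 rose, with Dnmt3a (-0.73), Dnmt3b (-0.64) and the cohesin subunit Stag2 (-0.57) largest and a median of -0.16, where 22.7% of all genes tested fell and 22.8% rose. With shRybp 12 fell and 1 rose, against 26.0% and 26.8% of all genes (Trim28 -0.87, Uhrf1 -0.74, Rest -0.67, median -0.27). With shWdr5 6 fell and 8 rose, against 31.5% of all genes each way (Stag1 0.75, Dnmt3l -0.49, Uhrf1 -0.48, median -0.06). In the libraries labelled rTRS DOX 6 fell and 4 rose, against 20.4% and 23.0% of all genes, led by Dnmt3b at 1.12 (median -0.10). With RYBP induction 3 rose and 1 fell, against 3.63% and 2.39% (Rest 0.73, Dnmt3b 0.57, median 0.01). TF-AA cells had 7 fallen and 1 risen, against 16.1% and 14.4% (Dnmt3l -1.34, Dnmt3a -0.57, Stag2 -0.51, median -0.14), and the phase disruption libraries 8 fallen and 1 risen, against 17.0% and 16.1% (Dnmt3b -0.76, Dnmt3l -0.49, Trim28 -0.25, median -0.10).

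The peak lists were examined over the same clusters. H3K4me3 is a mark of promoters, H3K27ac of active promoters and enhancers, RING1B is the ubiquitin ligase of PRC1 and STAT3 a transcription factor of the LIF pathway. Each antibody and group had 1 peak list, made from merged replicates or from a single sample, so no difference between lists was tested. The lists differed in size, and their sequencing depth was not compared. The 25 members have 47 annotated transcript starts (11 α, 26 β and 10 γ), and a start was counted where a peak lay within 1 kb of it.

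**Figure D3:**
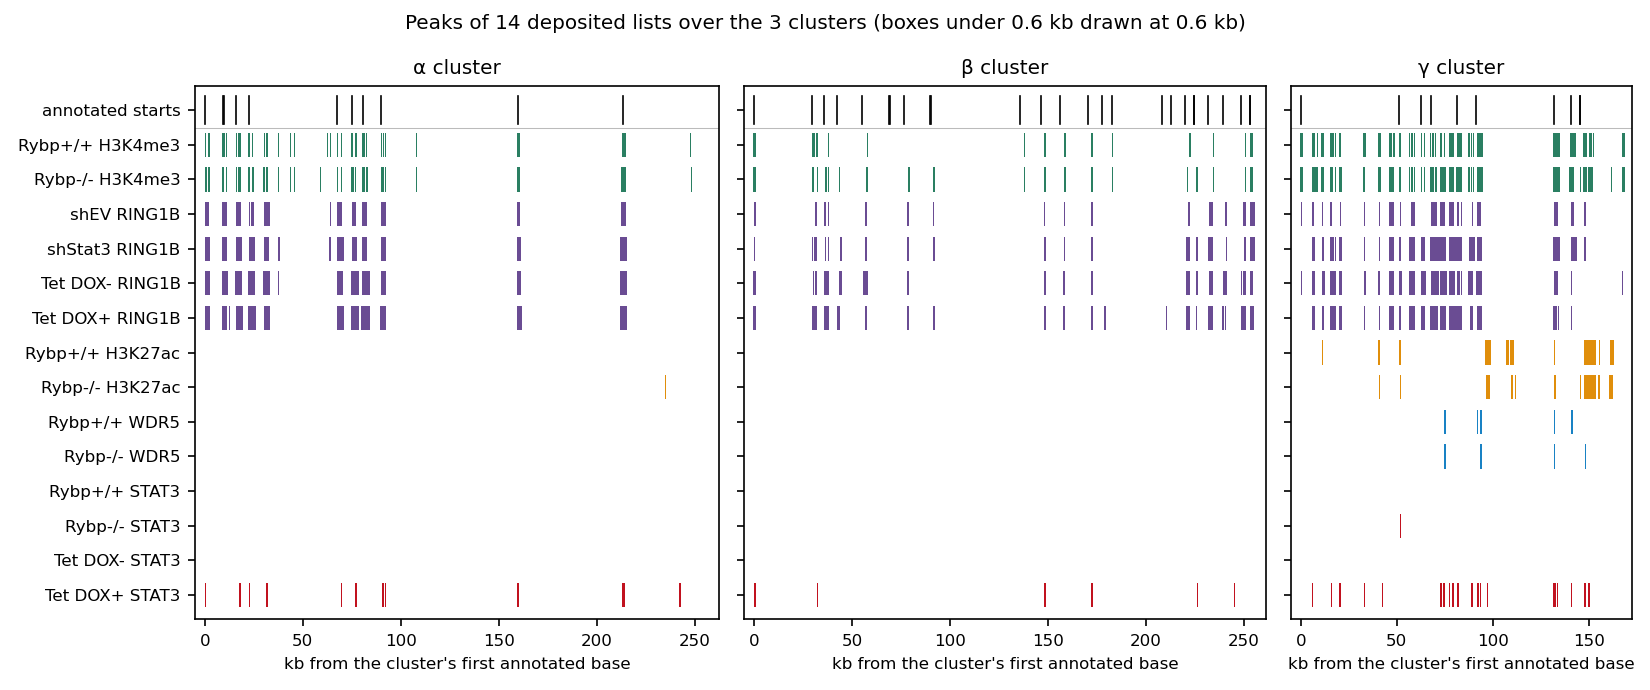
Peaks of the 14 lists (coloured boxes, 1 row per list) along the α, β and γ clusters, in kilobases from each cluster's first annotated base, with annotated starts on top. H3K4me3 (green) and RING1B (purple) boxes recur in all 3 clusters. They lie within 1 kb of every α start and most γ starts, but of at most 10 of the 26 β starts in any list. H3K27ac (orange) and WDR5 (blue) boxes lie almost wholly in the γ cluster.

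H3K4me3 and RING1B were at all of the annotated α starts. In Rybp+/+ cells 24 of 47 member starts had an H3K4me3 peak (51.1%, against 61.4% of 70018 other protein-coding starts), and in Rybp-/- cells 27 did (57.4% against 61.1%). Within 2.5 kb the order turned, at 37 (78.7% against 64.9%) and 41 (87.2% against 64.6%). RING1B was at 23 starts with shEV (48.9% against 36.8%), 25 with shStat3 (53.2% against 32.9%), 29 in Tet.Rybp.Stat3 cells without DOX (61.7% against 45.6%) and 28 with DOX (59.6% against 33.3%). All 11 α starts had a peak in each of these 6 lists. Within 1 kb the clusters differed in this respect: RING1B was at 7, 7, 8 and 7 of the 10 γ starts and at 5, 7, 10 and 10 of the 26 β starts. The β shares were 19.2%, 26.9%, 38.5% and 38.5%, above that of other starts only in the list with DOX. The wider window was not counted by cluster. H3K4me3 was at 5 and 6 β starts (19.2% and 23.1%). The RING1B count also depends on peak width. With the peak's centre required within 1 kb of the start, it was 12, 9, 13 and 14 in the order just given, or 25.5%, 19.1%, 27.7% and 29.8% of member starts against 33.8%, 29.9%, 41.9% and 29.9% of other starts, so that the member share was then no higher in any list, while within 2.5 kb it was higher in all 4 (76.6% to 85.1% against 35.0% to 48.2%).

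The highest RING1B enrichment of the α cluster lay at the same place in all 4 lists, over a start 213.6 to 213.9 kb into the cluster. The peak was chr18:37302570-37305032 with shEV (fold enrichment 40.7 over input, above 96.2% of peaks in that list), chr18:37302091-37305260 with shStat3 (42.4), chr18:37301731-37305409 without DOX (43.1) and chr18:37301693-37305363 with DOX (27.5). The highest H3K4me3 peak of the α cluster was at the same start, at a fold enrichment of 29.6 in Rybp+/+ (chr18:37302784-37304848) and 28.5 in Rybp-/- cells. Over the whole α cluster, 13, 13, 12 and 12 RING1B peaks covered 10.2%, 12.1%, 14.4% and 15.0% of its length in the 4 lists. All 13 shEV RING1B peaks of the α cluster overlapped a Rybp+/+ H3K4me3 peak by at least 1 base, as did 24 of 30 (80%) the other way round, although the cells were of different lines. How often peaks of these lists overlap across the genome was not determined.

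H3K27ac and WDR5, by contrast, were at few member starts, and only γ ones. H3K27ac was at 2 of 47 starts in Rybp+/+ (4.26% against 50.3% of other starts) and at 4 in Rybp-/- cells (8.51% against 52.2%). With peaks of −log10 q of at least 2 alone, which is the threshold given in the methods, it was at 2 starts in each genotype (4.26% against 50.1% and 52.0%). WDR5 was at 3 (6.38% against 40.0%) and at 1 (2.13% against 42.2%). The β cluster held no peak of either in either genotype, and the α cluster held a single weak H3K27ac peak in Rybp-/- cells (chr18:37324838-37325143, fold enrichment 3.04, 21215 bases from the nearest start).

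**Figure D4:**
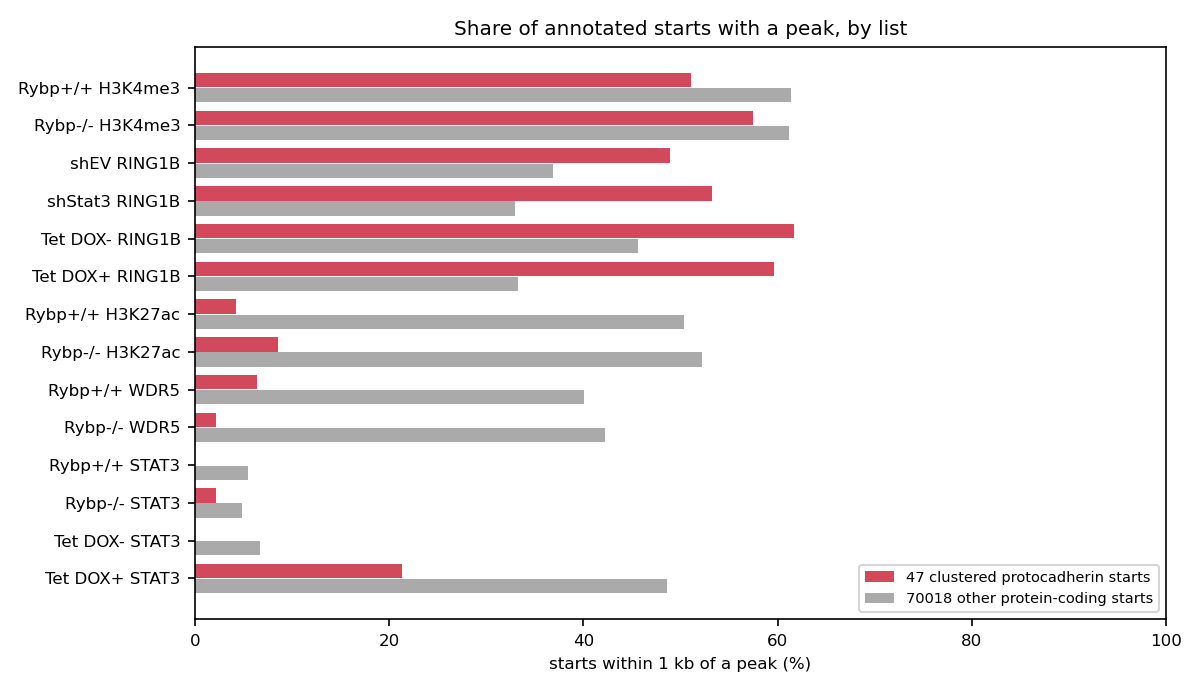
Share of annotated starts within 1 kb of a peak (x axis, %) for the 47 member starts (red) and 70018 other protein-coding starts (grey) in each list. The red bars are longer than the grey in the 4 RING1B lists (48.9% to 61.7% against 32.9% to 45.6%), where every α start but only 5, 7, 10 and 10 of 26 β starts had a peak, and where peak centres within 1 kb gave no higher share, and far shorter in the H3K27ac and WDR5 lists (at most 8.51% against 40.0% or more).

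The γ cluster carried all of these marks. H3K4me3 had 37 peaks there in Rybp+/+ and 38 in Rybp-/- cells, at 8 and 10 of the 10 γ starts. The highest, chr18:37965270-37968795 in Rybp+/+ cells, had a fold enrichment of 34.8, and its counterpart in Rybp-/- cells, chr18:37965226-37968991, had 44.7. The highest WDR5 peaks lay inside it, at chr18:37965634-37966414 (fold enrichment 6.96) and chr18:37965753-37966389 (8.99). H3K27ac had 13 and 10 peaks, the highest a stretch of 6194 bases in Rybp+/+ (chr18:37981671-37987864, fold enrichment 15.5) and 6316 bases in Rybp-/- cells (chr18:37981496-37987811, 12.8). It lay 2363 and 2188 bases from the nearest annotated start. RING1B had 20, 18, 21 and 18 peaks in the 4 lists, and its highest fold enrichment was 10.6, 24.9, 23.0 and 17.1. Of the 13 Rybp+/+ H3K27ac peaks 9 (69.2%) overlapped one in Rybp-/- cells, and 8 of 10 (80%) the other way round. The shares over the whole lists were not determined.

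More β genes had an H3K4me3 or RING1B peak somewhere over the gene than within 1 kb of a start. The genes are between 2457 and 7131 bases long, and 13 of 22 had an H3K4me3 peak over the gene in Rybp+/+ and 17 in Rybp-/- cells, against 62.2% and 62.4% of 3565 other genes in the same range of length. RING1B peaks lay over 14 (shEV), 16 (shStat3), 15 (without DOX) and 18 (with DOX) of the 22, where such genes had 38.2%, 33.7%, 45.1% and 33.8%. The middle of each gene's strongest peak was a median of 1900, 1891, 1535 and 1542 bases downstream of the start for RING1B, and 2226 and 2011 bases for H3K4me3. Only peaks that overlapped the gene were measured here, a choice that itself favours a middle downstream of the start, and in 3 lists (H3K4me3 in Rybp+/+ cells and RING1B without and with DOX) the highest peak of the cluster lay over the Pcdhb1 start. H3K27ac and WDR5 peaks lay over none of the 22.

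RING1B and H3K4me3 peaks lay over many of the same β genes. The share of other genes with both was not determined, so this overlap is a description alone. Of the 22, 13 had RING1B in all 4 lists and 13 had H3K4me3 in both, with 11 in common: Pcdhb1, Pcdhb2, Pcdhb3, Pcdhb5, Pcdhb10, Pcdhb11, Pcdhb12, Pcdhb17, Pcdhb19, Pcdhb21 and Pcdhb22. Pcdhb6 and Pcdhb16 had neither in any list. Pcdhb9 and Pcdhb14 had H3K4me3 but no RING1B, and Pcdhb20 had RING1B but no H3K4me3. Pcdhb13 and Pcdhb15 had RING1B in the list with DOX alone (fold enrichment 3.84 and 3.74) and no H3K4me3. H3K4me3 was over Pcdhb4, Pcdhb7, Pcdhb8 and Pcdhb18 in the Rybp-/- list alone, and over no β gene in the Rybp+/+ list alone. In RNA, those 4 genes had at most 10 counts in any library of the Rybp knockout table. The highest β peaks were at both ends of the cluster, over Pcdhb1 (RING1B fold enrichment 11.1 without and 10.7 with DOX) and Pcdhb21 (15.5 with shStat3, and H3K4me3 11.9 in Rybp-/- cells). Pcdhb17, the β gene of highest median level, had peaks of 3.29 and 3.47 for H3K4me3 and between 3.92 and 5.13 for RING1B.

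**Figure D5:**
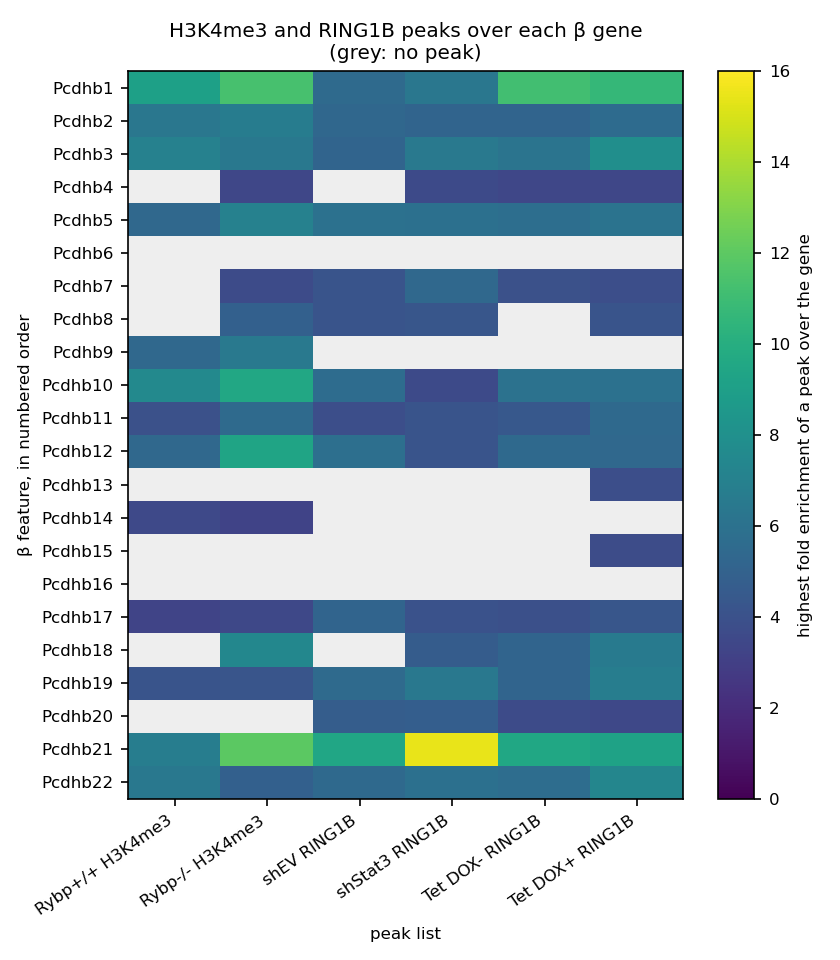
Highest fold enrichment over input (colour scale from 0) of a peak over each of the 22 β genes (rows, by gene number) in the H3K4me3 and RING1B lists (columns), with grey for no peak. Pcdhb6 and Pcdhb16 are grey throughout, and Pcdhb21 with shStat3 is the brightest cell at 15.5.

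The clusters held no STAT3 peak in Rybp+/+ cells or in Tet.Rybp.Stat3 cells without DOX, where 5.50% and 6.69% of other starts had one within 1 kb, and 1 γ start had one in Rybp-/- cells (2.13% against 4.83%, chr18:37885576-37885860, fold enrichment 5.14). With DOX, 10 member starts had one (21.3% against 48.6%): 5 α, 1 β (Pcdhb1) and 4 γ. Within 2.5 kb 20 did (42.6% against 52.6%). The whole STAT3 list was 10.9-fold longer with DOX (30663 against 2816 peaks), so the gain at the clusters came with a gain across the genome. With DOX the α cluster held 11 STAT3 peaks, the β cluster 7 and the γ cluster 21, of which 10, 6 and 16 overlapped a RING1B peak of the same cells. The share of all STAT3 peaks that did so was not determined. The highest was chr18:37912853-37913699 in the γ cluster (11.5, above 98.0% of that list).

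As a last feature that the choice of members did not use, the letters AGNNGGCGC, part of the core recognised by CTCF, were searched on both strands from 250 bases before to 50 bases after each start. They were found at 2 of 11 α, 2 of 26 β and 0 of 10 γ starts, 4 of 47 in all (8.51%), against 8.21% of 70018 other starts. A match is a description of these letters alone.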

How the data were processed

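Members and gene lists were chosen with earlier results of these data known. The authors trimmed reads (Trim Galore), aligned them to mm9 (STAR) and deposited whole-number counts per gene (htseq-count). For ChIP-seq, per the study's methods, reads were aligned to mm9 (Bowtie2), duplicates removed, replicates merged and peaks called against input (MACS2). The deposited lists give fold enrichment (a ratio to input) and −log10 q (no lower than 1.01 in RING1B and 1.30 in other lists). For RING1B, STAT3 and the later RNA tables the caller or aligner is not given in the sources used here.

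Each table was fitted alone with edgeR 4.0.16 (R 4.3.3; filterByExpr, TMM, quasi-likelihood test, Benjamini-Hochberg adjustment over all genes tested, threshold 0.05) after a test on simulated data. Alternatives were DESeq2 1.42.0, its size factors, no count filter, a replicate block and leaving out each library. Intervals (95%) come from the fitted spread. Genes were named by a rule: called members, the highest member of each cluster, and up to 3 called genes of each list. The remaining names were chosen after their values were seen. Symbols, exons and starts came from the GENCODE annotation of mm9, which gave a symbol to 98.9% of features.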

Additional observations from a re-analysis of the deposited data

How the results depend on the processing

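Most values kept their direction and their side of the threshold. With a replicate block the number of members called was 1 (Rybp knockout), 1 (Rybp knockdown), 2 (Wdr5 knockdown), 0 (rTRS), 0 (RYBP induction), 2 (TF-AA) and 1 (phase disruption), the same as without it, though the labels tie no replicate number to a shared batch (correlations of same-numbered deviations between -6.2e-05 and 0.20). Without the count filter 2 members were called in the Rybp knockdown, 3 in the Wdr5 knockdown (adding Pcdhb14) and 4 in the TF-AA table (adding Pcdhb6 and Pcdhb7), and DESeq2 called 1 in the TF-AA table. Leaving out 1 library at a time gave 1 to 2 called members for the Rybp knockout, 1 to 3 for the Rybp knockdown, 2 to 3 for Wdr5, 0 to 1 for rTRS, 0 for RYBP induction, 1 to 2 for TF-AA and 1 for phase disruption. With a library left out, groups of 1 are assumed to vary like the other group, and the filter asks for 1 library in place of 2. Pcdhb2, Pcdhb3 and Pcdhb14, and in the TF-AA table Pcdhb6 and Pcdhb7, therefore entered through the group where they are high. Their calls are no independent evidence. Signs turned in 5 uncalled log2 fold changes, which ranged over the libraries left out from -0.33 to 0.056 (Pcdha11, Rybp knockout), -0.00076 to 0.18 (Pcdhgc5, rTRS), -0.87 to 0.068 (Pcdha11, TF-AA), -0.090 to 0.024 (Pcdhgc5, TF-AA) and -0.64 to 0.28 (Pcdhb17, phase disruption).

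With a window of 2.5 kb the starts with a peak were 4 (H3K27ac, Rybp+/+; 8.51% against 54.1% of other starts), 37 and 41 (H3K4me3, Rybp+/+ and Rybp-/-; 78.7% and 87.2% against 64.9% and 64.6%), 2 (WDR5, Rybp-/-; 4.26% against 45.0%), 38 and 39 (RING1B, shEV and shStat3; 80.9% and 83.0% against 39.4% and 35.0%) and 20 (STAT3, with DOX; 42.6% against 52.6%). With the peak centre within 1 kb, RING1B was at 12 (shEV), 9 (shStat3), 13 (without DOX) and 14 (with DOX). Keeping peaks with −log10 q of at least 2 left 2 starts with H3K27ac in Rybp-/- cells (4.26% against 52.0%). The 18 members that never passed the filter had at most 23 counts in any library and were not tested. The cause of each shift was not tested.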
